A study of Caenorhabditis elegans with 9 samples.

Results

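*rps-22* encodes a protein of the small ribosomal subunit, and between its first coding exon and the rest of its coding sequence lies a 176-nt cassette exon. This exon is 1 of 786 cassette exons in RNA-Seq tables of *C. elegans* lacking nonsense-mediated mRNA decay (NMD). It was chosen by its difference in inclusion, measured in these libraries, between each NMD mutant and wild-type, so those 2 contrasts are described here and not tested. A search for every row named *rps-22* or *W06D12.8* found 2 exons in all, the *rps-22* exon and a 105-nt exon that lies in another gene and is described last. The 9 poly(A) libraries came from whole animals that the methods place at the L4 larval stage, 3 each of *smg-2* (CB4043) knockouts, *smg-1* (TR1331) knockouts and wild-type. The sample labels give N2 as the strain of all 9, with the strain names CB4043 and TR1331 under genotype. Each mutant was 1 strain, and tissues were not separated. Fewer cells that use an exon and less of that RNA per cell therefore cannot be told apart.

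NMD is a surveillance pathway that degrades mRNAs in which translation stops early. SMG-1 is a protein kinase that phosphorylates SMG-2, an RNA helicase known as UPF1 in mammals, and worms that lack either protein accumulate RNAs that the pathway would otherwise remove. A poison exon is an alternative exon that places such an early stop in the mRNA. RPS-22 is the worm ortholog of human RPS15A, a core component of the small subunit, and genes of ribosomal proteins are among the most highly expressed in a growing animal.

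The data are the usage of the junction that skips each exon, as a fraction of the reads of an event, and the read count of that junction. PSI (percent spliced in) was taken as the percentage of junction reads that did not skip the exon. The labels of wild-type and mutant read counts conflicted with those of usage, since counts divided by usage gave whole totals in 25.8% and 25.3% of cells as deposited and in 100% of cells with the count labels exchanged. The exchanged labels were used for all read numbers below, and PSI does not depend on them. In the 458 exons whose total reads could be derived in all 9 libraries (a total is count over usage, so none is known where the exon was never skipped), junction reads summed to between 46407 and 119634 in *smg-2*, between 127789 and 269529 in *smg-1* and between 68710 and 156663 in wild-type. Exons of 5 genes known from muscle and 8 genes known from neurons were among those measured in the *smg-1* table. Levels of *smg-1* and *smg-2* RNA were not analysed here.

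In the WBcel235 build the cassette exon occupied chromosome III from 1950821 to 1950996 on the plus strand, within *rps-22* (WBGene00004491, 1950535 to 1951425). The exon before it ended at 1950771 and held the start codon and 96 nt of coding sequence, which is 32 codons. The exon after it started at 1951073 and ran to 1951424. The introns on either side were short, at 49 nt before the cassette exon and 76 nt after it, where the medians over 782 exons were 207 nt and 273 nt. Only 22 of the 782 exons had both introns as short as these or shorter.

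The cassette exon is not a multiple of 3 nt, with a remainder of 2, and it also carries its own stop codon. Translation of the included form read 16 codons into the exon and met TGA at position 49 of the exon, at 1950869 to 1950871. That form encodes 48 residues, against 130 residues when the exon is skipped, and 24.6% of the full protein was left before the exon. The stop lay 125 nt before the end of the cassette exon, so an exon junction followed it. The other frames were not open either, as all 3 frames of the exon held stop codons (4, 6 and 3). GC content was 40.3% in the cassette exon, and 59.4% and 53.2% in the coding parts of the exons before and after it.

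The windows that follow, from the WBcel235 genome, show the 4 splice sites at which the forms differ and the stop codon that the included form meets. Capitals mark exon bases in the splice sites and the stop codon in the third window.
upstream donor, chrIII:1950757-1950786: CGTCCAGCCTCCAAGgtaaattcgcgtcgt
cassette acceptor, chrIII:1950806-1950835: catttttgttaatagATGATGATGCTGGCA
premature stop, chrIII:1950857-1950883: caaggctctccgTGAatttagaattta
cassette donor, chrIII:1950982-1951011: ATATGAATGTTGAAGgtaaccagcttaaca
downstream acceptor, chrIII:1951058-1951087: acaataattttccagGTCATCGTCCGCTTC

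The acceptor of the cassette exon ended in TAG, as did 215 of 782 cassette acceptors (27.5%), whereas 517 (66.1%) ended in CAG. Its last 5 intron bases, AATAG, were found at 4 of the 782 (0.512%). The acceptor of the exon after it ended in TTCCAG, a sequence present at 13.9% of downstream acceptors, and CAG ended 87.5% of them. An acceptor in TAG followed by one in CAG occurred in 190 events (24.3%). Only the transcribed strand was searched, and these matches describe the letters at the sites. Of the 5 annotated *rps-22* transcripts, 3 skip the exon and encode 130 residues. The other 2 hold its sequence, 1 as an exon and 1 joined to the exon before it by a retained intron, and are annotated from an ATG near the end of the cassette exon, with 3 codons read from it and 101 residues in all.

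**Figure D1:**
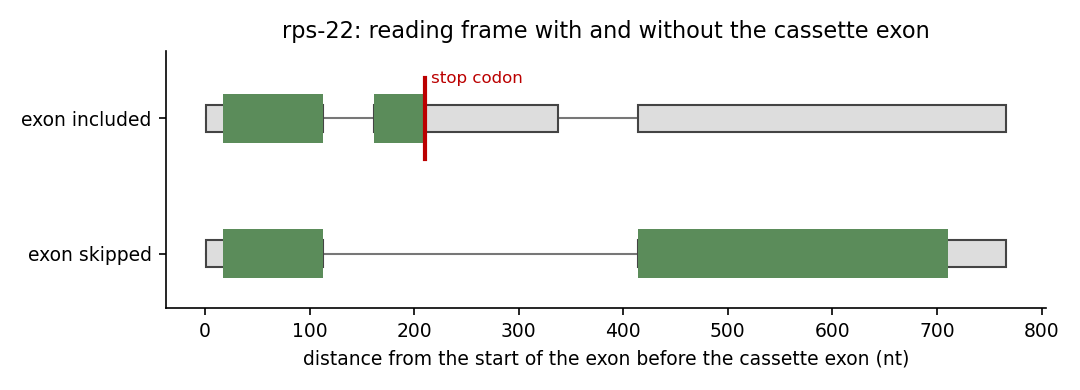
Exons (boxes) and introns (lines) of *rps-22* around the cassette exon, with the horizontal axis in nt from the start of the exon before it; green marks the reading frame from the annotated start codon and the red bar the first in-frame stop codon. With the exon included the frame ends 16 codons into it (48 residues), and with the exon skipped it runs on into the next exon (130 residues).

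In the *smg-2* libraries the PSI of the *rps-22* exon was 45.2%, 50.6% and 43.8%. It was 41.3%, 42.2% and 40.7% in the *smg-1* libraries, against 0.99%, 0.89% and 0.89% in wild-type. No mutant library came near a wild-type library, and the 3 wild-type values were all below 1%. The means were 46.5% ± 3.55 in *smg-2*, 41.4% ± 0.748 in *smg-1* and 0.923% ± 0.0577 in wild-type (SD, n = 3 each). PSI was thus 45.6 points higher in *smg-2* than in wild-type and 40.5 points higher in *smg-1* than in wild-type. These differences chose the exon and carry no test. Among all exons, 6.83% (34 of 498) passed the limma test with a PSI over 10 points higher in *smg-2*, and 6.27% (49 of 782) did so in *smg-1*.

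**Figure D2:**
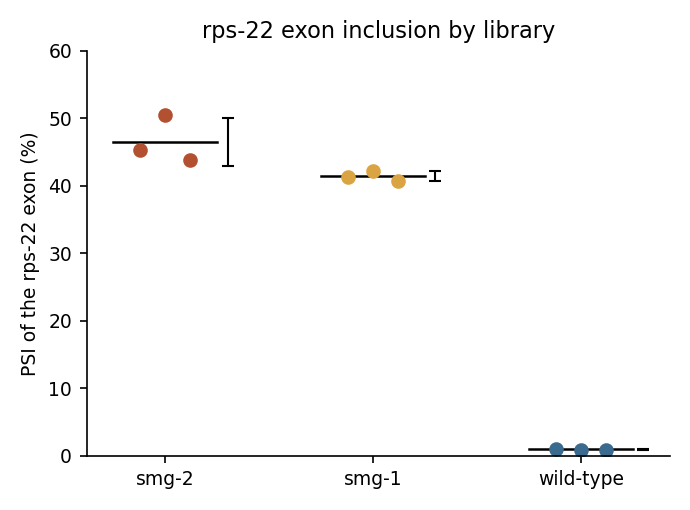
PSI of the *rps-22* exon (vertical axis, %) in each library of *smg-2*, *smg-1* and wild-type; points are libraries with 95% Wilson intervals, mostly hidden by the points, lines are group means and the black bars beside them the SD (n = 3). The 6 mutant libraries lie between 40.7% and 50.6% and the 3 wild-type libraries below 1%.

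The wild-type libraries held enough reads to show that the exon was included at a low level there. Inclusion reads numbered 283 of 28598, 139 of 15659 and 216 of 24228 junction reads in the 3 wild-type libraries, and the 95% Wilson intervals ran from 0.752% to 1.11% over all of them. In the *smg-2* libraries inclusion reads numbered 7686 of 16989, 13518 of 26742 and 5574 of 12723. In the *smg-1* libraries they numbered 26214 of 63487, 15077 of 35711 and 12192 of 29926. Totals are uncertain by a few reads, since usage was given to 4 decimals, and the intervals cover counting error only. For every 100 skipping reads there were 87.6 ± 12.9 inclusion reads in *smg-2*, 70.7 ± 2.19 in *smg-1* and 0.932 ± 0.0589 in wild-type (SD, n = 3). The ratio was 94.0 times that of wild-type in *smg-2* and 75.9 times in *smg-1*. Both were the highest ratios among exons with inclusion and skipping reads in every library (424 in the *smg-2* table and 596 in the *smg-1* table), and the next were 48.4 for *rbm-39* in *smg-2* and 47.4 for *rsp-8* in *smg-1*, both genes of RNA-binding proteins.

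The skipping reads, which belong to the form that encodes the whole protein, had a lower share in the mutants. In those 458 exons, the *rps-22* skipping junction made up 12.6%, 11.1% and 15.4% of junction reads in *smg-2*, 13.8%, 12.4% and 13.9% in *smg-1*, and 18.1%, 22.6% and 20.5% in wild-type. Every mutant value was below every wild-type value, a description that carries no test, as these reads belong to the contrasts that chose the exon. How many of the other exons had the same order is not given here, so it is not shown to be particular to *rps-22*. The inclusion junction made up 10.4%, 11.3% and 12.01% in *smg-2*, 9.73%, 9.07% and 9.54% in *smg-1*, and 0.181%, 0.202% and 0.185% in wild-type. Both junctions together took 24.2% ± 2.77 in *smg-2*, 22.8% ± 1.16 in *smg-1* and 20.6% ± 2.27 in wild-type, and these ranges overlapped between both mutants and wild-type. Inclusion reads of *rps-22* were thus the most abundant of all 458 exons in each mutant library, and ranked 42 to 52 in wild-type.

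Scaled to the junction reads of all exons measured in a table, the log2 ratio of skipping reads was -0.65 in *smg-2* over wild-type and -0.48 in *smg-1* over wild-type. The log2 ratio of inclusion reads was 5.89 in *smg-2* and 5.77 in *smg-1*. Inclusion reads count in the denominator of these ratios, and without the *rps-22* exon in it the ratios of skipping reads were -0.58 in *smg-2* and -0.42 in *smg-1*. Scaled only to exons whose PSI differed by 10 points or less, they were -0.43 in *smg-2* and -0.31 in *smg-1*. These levels are relative to other cassette exons, as gene counts were not analysed here.

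**Figure D3:**
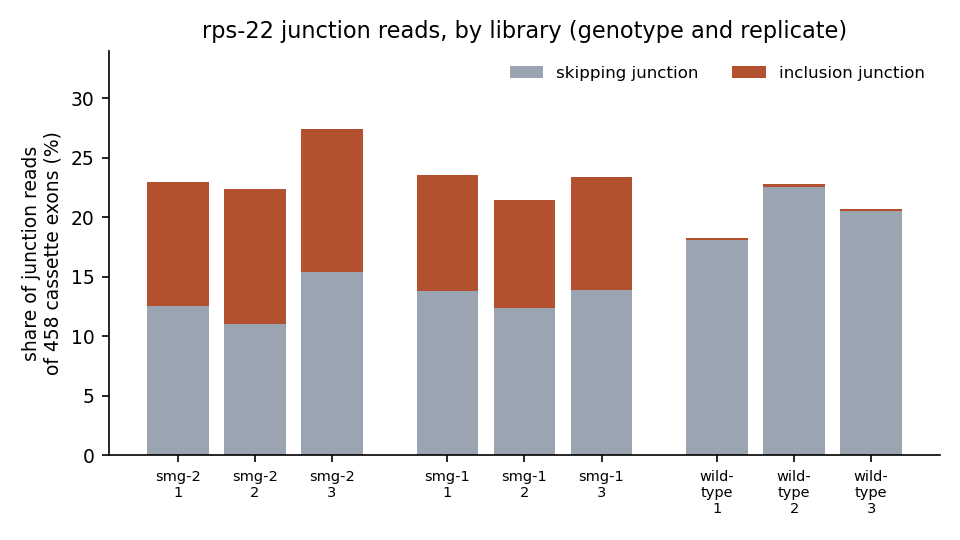
Share of the junction reads of 458 cassette exons (vertical axis, %) that fell on the *rps-22* skipping junction (grey) and inclusion junction (red) in each library, named by genotype and replicate. The grey part is lower in all 6 mutant libraries (11.1% to 15.4%) than in the 3 wild-type libraries (18.1% to 22.6%), where the red part is about 0.2%. How many other exons show this order is not given.

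The choice of the exon did not use the mutants against each other, so this contrast was tested. PSI averaged 46.5% in *smg-2* and 41.4% in *smg-1*, a difference of 5.12 points (95% interval -2.08 to 12.3 with limma in percentage points). All 3 *smg-2* values were above all 3 *smg-1* values, as was the case for 9.05% of exons (45 of 497). The exact permutation test gave a two-sided p of 0.1, the smallest that 3 against 3 libraries allow. With limma on the logit of PSI the difference was 0.21 ± 0.19 (SE, 95% interval -0.24 to 0.66), with an adjusted p of 0.755 over 498 exons, and with the replicate number as a block the limma adjusted p was 0.738. The quasi-likelihood test of edgeR on the reads gave an adjusted p of 0.374. Before adjustment the 2 methods differed, with a p of 0.0256 from edgeR and 0.313 from limma on the logit. The difference did not pass either test after adjustment, and its limma interval includes differences of over 12 points as well as none. limma called 0 of the 498 exons (0%) in this contrast, with 42 at an unadjusted p under 0.05, and edgeR called 3.

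The *smg-2* values were spread more widely than the *smg-1* values, a difference in spread that was not tested. The SD of PSI was 3.55 points in *smg-2*, where counting alone would give 0.381, and 0.748 points in *smg-1*, where it would give 0.25. In wild-type the SD of 0.0577 points was close to the 0.0657 points of counting alone. Replicate 2 of *smg-2* had the highest PSI (50.6%) and also the most reads of its group. Without it the difference between *smg-2* and *smg-1* was 3.11 points.

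No exon had a depth like that of *rps-22*. Depth was compared over the 9 libraries, among the 498 exons with *smg-2* values of their own. The median of *rps-22* was 26742 junction reads per library, against 2499 for the next, in the galectin gene *lec-9*. The 20 exons nearest in depth ran from 714 to 2499. Among these 20, the SD of PSI had a median of 2.70 points in *smg-2*, 1.60 points in *smg-1* and 2.96 points in wild-type. The SD of *rps-22* was below all 20 of them in wild-type and below 19 of them in *smg-1*, while 13 of them had a lower SD in *smg-2*. In wild-type the PSI of *rps-22* (0.923%) was near the lower end of the scale, which limits its SD in points. Relative to binomial counting, the variance of *rps-22* PSI was 102 times in *smg-2*, 7.77 times in *smg-1* and 0.895 times in wild-type, and the medians of the 20 were 3.24, 3.30 and 5.21. This ratio depends on depth, so the values of *rps-22* and of the shallower 20 are not on a like footing.

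PSI of the 20 deep exons differed from wild-type by a median of 4.70 points in *smg-2* and 3.25 points in *smg-1*, in absolute terms, and the largest increases were 21.9 and 16.5 points, both in the splicing factor gene *rsp-4*. Of the 20, 4 were called higher and 3 lower in *smg-2*, and 3 higher and 3 lower in *smg-1*. Over all exons, 6.83% (34 of 498) were called higher and 8.23% (41) lower in *smg-2*, and 6.27% (49 of 782) higher and 6.52% (51) lower in *smg-1*. The exons called higher in both, in *lec-9*, *tos-1* and *rsp-4*, all contain an in-frame stop codon, as does that of the purine biosynthesis gene *paic-1*, called higher in *smg-2*. The increase at *rps-22* was more than 2 times that of any of the 20 in each mutant. Decreases reached further, as the *fubl-1* exon differed by -68.1 points in *smg-2* and -65.0 points in *smg-1*. Its absolute difference was larger than that of *rps-22* in each mutant. Also called lower in both were *hrpr-1* (-41.7 points in *smg-2*, -33.8 in *smg-1*) and *hrpk-1* (-36.4 and -34.1 points).

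**Figure D4:**
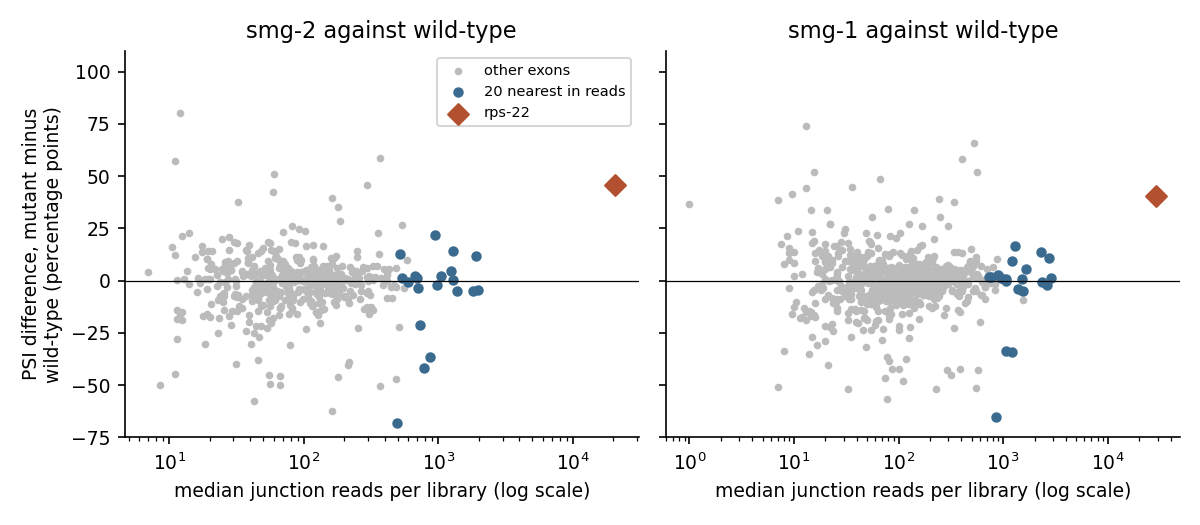
PSI difference of each cassette exon, mutant minus wild-type (vertical axis, percentage points), against its median junction reads per library (horizontal axis, log scale), for *smg-2* (left) and *smg-1* (right). The *rps-22* exon (diamond) lies alone at the right, at 45.6 and 40.5 points. The 20 exons nearest to it in reads over all 9 libraries (blue) have at most 2855 in either panel. They were picked among exons with values of their own in both mutants, so some *smg-1* exons of like depth are not blue.

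By absolute difference, decreases included, the *rps-22* exon had rank 15 of 498 in *smg-2* and rank 24 of 782 in *smg-1*. By size of the increase, it had rank 6 of 498 in *smg-2* and rank 10 of 782 in *smg-1*. In *smg-2* the exons next above it were those of *melo-1* (45.7 points), *sav-1* (50.9 points), the worm homolog of the Hippo pathway protein Salvador, and *ttr-11* (57.1 points), a transthyretin-related gene. The next below were *K08B12.3* (42.5 points), *mig-22* (39.4 points), which encodes a chondroitin polymerizing factor, and *C50H2.13* (37.5 points). In *smg-1* those above were *C38D9.2* (41.3 points), *F13B12.7* (44.5 points) and the ceramide glucosyltransferase gene *cgt-2* (44.9 points), and those below were *mig-22* (39.2 points), the glucuronosyltransferase gene *ugt-37* (38.5 points) and *melo-1* (37.7 points). The SD of *rps-22* PSI in *smg-1* (0.748 points) was below those of its 6 neighbours, which ran from 3.90 to 17.9 points. In *smg-2* its SD (3.55 points) was above that of the *mig-22* exon (2.57 points) and below those of its other neighbours, at 5.04 to 9.09 points. All of these neighbours were far shallower, which limits the comparison of SD. Their median junction reads per library were between 11 and 294 in *smg-2*, against 20608.5 for *rps-22*. In *smg-1* they were between 7 and 340.5, against 29262 for *rps-22*.

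Over the PSI of all 9 libraries, the exon most alike was that of *K08B12.3*, at a distance of 5.43 points per library (root mean square). It had a PSI of 45.4% ± 5.82 in *smg-2*, 37.1% ± 3.68 in *smg-1* and 2.93% ± 0.816 in wild-type (SD, n = 3 each). The others, in order, were *C50H2.13*, *mig-22*, the C-type lectin gene *clec-51*, *melo-1*, *sav-1*, *rbm-39* and *C05D12.3*, at distances of 6.65 to 13.4 points among 494 exons. All 8 had median depths of 45 to 494 junction reads. Of the 8 exons, 5 were not multiples of 3 nt, but the share of such exons among all 494 is not given here. The included forms of 7 of the 8 contained an in-frame stop codon in the exon. *K08B12.3* was the exception, with a 91-nt exon that shifts the frame and shortens the protein to 133 residues when included, against 257 when skipped. Likeness here was measured on the values that chose the *rps-22* exon, so it is a description.

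**Figure D5:**
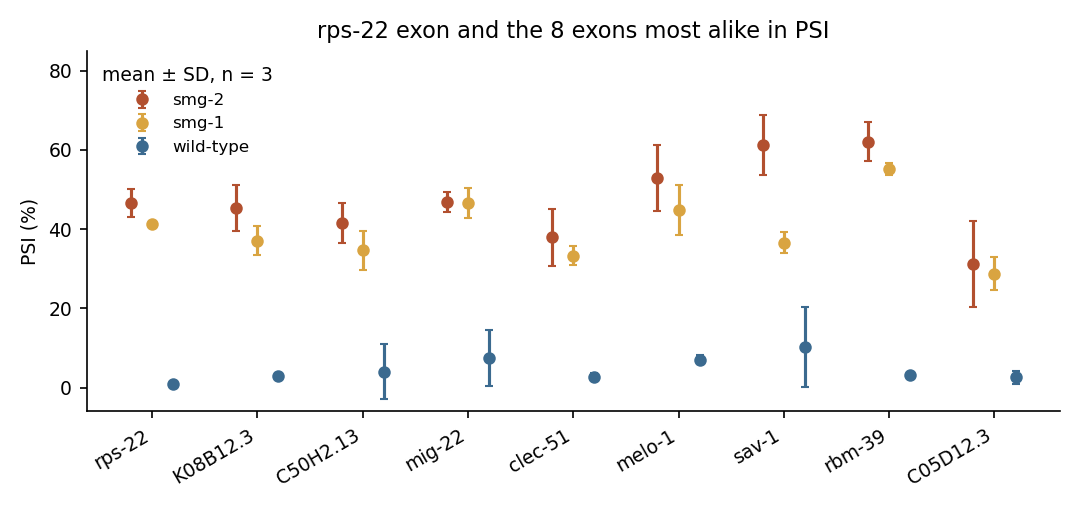
Mean PSI (vertical axis, %) of the *rps-22* exon and of the 8 exons with the smallest distance to it over 9 libraries, in *smg-2*, *smg-1* and wild-type; bars are the SD over 3 libraries. Wild-type means are 0.923% for *rps-22* and between 2.58% and 10.3% for the others.

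An in-frame stop within the exon was found in 126 of the 705 exons whose 2 forms could be built from the annotation, that of *rps-22* among them. Of exons with such a stop, 26 of 67 were called higher and 0 lower in *smg-2*, and 38 of 126 higher and 0 lower in *smg-1*. Both counts of higher calls include *rps-22*, which was chosen by these contrasts. Of exons without one, 8 of 407 were called higher and 37 lower in *smg-2*, and 7 of 579 higher and 44 lower in *smg-1*. Within the 126, the protein of *rps-22* was short, since only 3 had fewer residues in the skipped form (median 475.5). Its exon was long, with 95 of the 126 shorter than 176 nt (median 109 nt).

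*rps-22* was the only gene of a cytosolic ribosomal protein with a cassette exon in either table, and no mitochondrial ribosomal protein gene had one. Genes listed for a role in translation had 2 exons in the *smg-2* table and 3 in the *smg-1* table. They were in *efk-1*, which encodes the eEF2 kinase, and in the La-related genes *larp-5* and *larp-1*. None of these passed the test, with medians of 0.348 points in *smg-2* and -3.16 points in *smg-1*, beside -0.13 and -0.417 points over all exons. Of NMD genes, exons of *smg-6*, an endonuclease, and *smgl-2*, a helicase related to human DHX34, were measured. The *smgl-2* exon had a PSI of 82.5% ± 4.66 in *smg-2*, 90.9% ± 0.341 in *smg-1* and 94.1% ± 1.55 in wild-type. It fell by 11.6 points in *smg-2* relative to wild-type (limma adjusted p = 0.0319) and did not pass the test in *smg-1* (-3.23 points, limma adjusted p = 0.216). The *smg-6* exon differed from wild-type by 3.59 points in *smg-2* and by -5.06 points in *smg-1*, and neither difference passed the test.

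The second exon found by name was 105 nt long, at 1933198 to 1933302 on chromosome III, and was named *W06D12.8* in the *smg-1* table, as was the *rps-22* exon. The annotation puts it in *pqn-41* (1905958 to 1939570), a gene of a glutamine-rich protein upstream of *rps-22*, while *W06D12.8* itself is a non-coding RNA gene on chromosome V (17725789 to 17725842). The *rps-22* exon thus had a name in that table that belongs to neither gene. The *pqn-41* exon is a multiple of 3 nt and adds residues without a stop, with 2049 residues when included and 2014 when skipped. Its PSI was 26.2%, 11.3% and 20% in *smg-2*, 21.0%, 25.2% and 23.9% in *smg-1*, and 22.7%, 32.1% and 30.2% in wild-type. The groups overlapped, and total reads were only 50 to 214 per library. PSI differed from wild-type by -9.16 points in *smg-2* (limma adjusted p = 0.422) and by -4.95 points in *smg-1* (limma adjusted p = 0.573), and between *smg-2* and *smg-1* by -4.20 points (limma adjusted p = 0.762). None of the 3 contrasts passed the test.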

How the data were processed

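The members and gene lists were chosen with earlier results of these data known. The authors aligned reads with STAR 2.5.3a and measured junctions with JUM 2.0.2, requiring 5 reads per event. The submitters' processing notes name bedtools. The fraction values were deposited by the authors and give how often the skipping junction was used, of 2 junctions that share a splice site. Counts, as the authors deposited them, are reads of that junction. The tables also hold the authors' own PSI differences, fold changes, means and p-values, which were not used. Labels of wild-type and mutant counts were exchanged, because wild-type usage was identical in both tables for 620 of 620 exons and so were the counts labelled mutant. The downstream coordinate of the tables was read with the offset that matches the annotation.

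Of 786 exons in the *smg-1* table, 782 were used: 1 had its coordinates in reverse order, and for 3 some group held under 2 values. Of 620 exons in the *smg-2* table, 498 were used, because 122 repeated *smg-1* values. The logit of PSI, with values held within 1-99%, was fitted with limma 3.58.1 (R 4.3.3), each contrast on its 2 groups, with Benjamini-Hochberg adjustment over all exons. A call needed a difference of over 10 points and an adjusted p below 0.05. The wild-type PSI of the *rps-22* exon lies under the 1% limit. edgeR 4.0.16 on inclusion and skipping reads was an alternative, as were other limits, weights, filters, scalings and each library left out. The methods name biological replicates. The limma p-values set the difference between groups against the spread between these samples, with the variance moderated over all exons.

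Between *smg-2* and *smg-1*, the deviations of same-numbered libraries had correlations of 0.131, 0.11 and 0.101 for numbers 1, 2 and 3. Replicate 1 of *smg-2* with replicate 2 of *smg-1* gave 0.114, while the other unlike numbers gave -0.187 to 0.0467. Same numbers thus tended to correlate more, and whether they mark pairs was not tested. The fit with the replicate number as a block is given beside the main fit. The main limma fit and the permutation test do not use the numbers, and the labels name no shared batch. Gene models and sequences came from the Ensembl 115 annotation and the RefSeq genome of WBcel235. Named exons were the members, the 8 nearest in PSI over the 9 libraries, the 3 next above and below in PSI change, list members and the 20 nearest in junction reads. The genes *rsp-8*, *lec-9*, *tos-1*, *rsp-4*, *paic-1*, *fubl-1*, *hrpr-1* and *hrpk-1* were named after their values were seen. Values were computed with Python 3.11.15, scipy 1.17.1, pandas 2.3.3 and matplotlib 3.10.9.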

Additional observations from a re-analysis of the deposited data

How the results depend on the processing

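The weight given to inclusion reads set the size of the *rps-22* change. With inclusion reads halved, PSI was 29.9 points higher in *smg-2* and 25.7 points higher in *smg-1* than in wild-type, and with them doubled 61.6 and 56.7 points. Leaving out a library gave 43.6 to 47.0 points in *smg-2* and 40.1 to 40.8 points in *smg-1*. Between *smg-2* and *smg-1* the difference stayed positive, at 3.11 to 6.48 points with a library left out, and passed no test after adjustment under any alternative run. The replicate block gave an adjusted p of 0.738 there, changed no call in that contrast, and gave 63 calls in *smg-2* and 80 in *smg-1* against wild-type. Against wild-type the same numbers had correlations of 0.00801, 0.116 and 0.16 in *smg-2*, where unlike numbers gave -0.205 to 0.0733. In *smg-1* the same numbers gave 0.0908, 0.0218 and -0.0296, and unlike numbers -0.113 to 0.0693. Whether same numbers mark pairs was not tested. edgeR called 3 exons between the mutants where limma called 0, and the cause was not tested. Calls against wild-type, 75 in *smg-2* and 100 in *smg-1* with all libraries, were 54 to 72 in *smg-2*, lower whichever library was left out, and 69 to 113 in *smg-1*. Between the mutants they were 0 to 0. With exons whose PSI differed by 10 points or less as the scale, the log2 ratio of inclusion reads was 6.11 in *smg-2* and 5.94 in *smg-1*, and that of skipping reads -0.43 and -0.31, the smallest decreases of the scalings tried. With a library left out the ratio of inclusion reads was 5.84 to 5.94 in *smg-2* and 5.73 to 5.84 in *smg-1*, and that of skipping reads -0.79 to -0.55 in *smg-2* and -0.56 to -0.39 in *smg-1*. The scale without the *rps-22* exon was added after seeing the data. All other exons are at least 10-fold shallower than *rps-22*, which limits any comparison of spread.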
